A study of Homo sapiens with 21 samples.

Results

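HNRNPK-bound segments of 3 long noncoding RNAs of the nucleus, *MALAT1*, *NEAT1* and *KCNQ1OT1*, were examined in MDA-MB-231 cells, an established human triple-negative breast cancer line. Clusters that the deposited annotation assigned to these gene names were taken, which gave 335 of the 778762 clusters of the series, 92 on *MALAT1*, 156 on *NEAT1* and 87 on *KCNQ1OT1*. The libraries came from PAR-CLIP, in which cells take up 4-thiouridine (4SU), bound RNA is crosslinked to protein by ultraviolet light, and the crosslinked U is read as C, so that a T-to-C change marks the contact. Both parental cells and *KRT19* KO cells, which lack keratin 19 after CRISPR-Cas9 editing, received 4SU and were separated into cytoplasm and nucleus before HNRNPK was immunoprecipitated and its RNA was trimmed with RNase T1, which cuts after G. The immunoprecipitate may also hold HNRNPJ, a putative splice isoform of HNRNPK, whose RNA cannot be told apart here. There was 1 library per condition, so no difference between conditions has a replicate check, no test was run, and every interval below covers counting error only.

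Cluster reads numbered 5551612 in the cytoplasm of parental cells, 6216226 in the cytoplasm of *KRT19* KO cells, 3537577 in the nucleus of parental cells and 3252800 in the nucleus of *KRT19* KO cells. Values of 4 libraries are given in this order. Levels are the reads on an RNA divided by all cluster reads of the library and scaled to 1000000 reads (RPM). A cluster is a stretch of overlapping reads with T-to-C changes, called separately in each library with at least 5 reads. A position with no listed cluster may still have held reads, so "not listed" does not mean unbound. Clusters of any libraries were merged, where they shared 1 nt or more of a strand, into a site. This gave 55 sites on *MALAT1*, 104 on *NEAT1* and 70 on *KCNQ1OT1*, numbered from the 5′ end of each RNA, of 592021 sites in the series. *KRT19* had 1 cluster in each cytoplasm, of 7 reads in parental and of 5 reads in *KRT19* KO cells, and none listed in either nucleus, too few to check the genotype.

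HNRNPK is a shuttling RNA-binding protein whose KH domains prefer runs of C. *MALAT1* is an abundant RNA of nuclear speckles, the compartments that hold splicing factors. *NEAT1* is the scaffold of paraspeckles, made as a short isoform and as a long isoform that runs on past the end of the short one, and only the long isoform builds paraspeckles. HNRNPK is known to favour the long isoform by interfering with 3′-end processing of the short one. *KCNQ1OT1* is an imprinted antisense RNA transcribed from the paternal chromosome within *KCNQ1*, and it silences neighbouring genes such as *CDKN1C*, an inhibitor of the cell cycle. HNRNPK is also known to bind C-rich, Alu-derived elements that hold long RNAs in the nucleus.

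All 3 RNAs lie on chromosome 11. For each, 1 annotated transcript was taken as an unbroken stretch, and positions were counted along it. Other annotated transcripts, such as the rest of the 66 of *MALAT1*, were not checked for introns. In GRCh37, *MALAT1* (ENST00000534336) spans chr11:65265111-65275544 on the plus strand (10434 nt). *NEAT1* (ENST00000501122) spans chr11:65190269-65213011 on the plus strand (22743 nt), and *KCNQ1OT1* (ENST00000597346) spans chr11:2629558-2721224 on the minus strand (91667 nt). The 3 sites with the most reads on each RNA are shown here, because the description of each RNA's profile starts from them. Each line gives the RNA strand from 5′ to 3′ as DNA letters, whole for sites of up to 30 nt and otherwise the 30 nt richest in C runs, with runs of 2 or more C in capitals.
MALAT1 site 44: CCtatttactttaaataaaCCaaacattCC
MALAT1 site 31: atgtCCatctcaaaatactgcttttacaaa
MALAT1 site 33: aaCCatggcactttctCCtgaCCCCttCCC
NEAT1 site 39: cattCCattCCCtCCagCCtcagcaaCCCC
NEAT1 site 40: attttatatcttttttttatCCattcatCC
NEAT1 site 19: gtacataattactaatcacttttcttCCCC
KCNQ1OT1 site 16: ctCCtCCCCtatgctCCCCatttCCCaaga
KCNQ1OT1 site 61: ctcaaaaaataaatactCCCaaatCCacac
KCNQ1OT1 site 5: ttcttCCtcaaataaaatattttataCC
The stretches lie at chr11:65272354-65272383, chr11:65270418-65270447 and chr11:65270742-65270771 on *MALAT1*. Those of *NEAT1* lie at chr11:65198513-65198542, chr11:65198722-65198751 and chr11:65193933-65193962, and those of *KCNQ1OT1* at chr11:2710628-2710657, chr11:2679580-2679609 and chr11:2716874-2716901. A run of at least 3 C occurred in 1 of the 3 *MALAT1* sites (site 33), in sites 39 and 19 of *NEAT1* and in sites 16 and 61 of *KCNQ1OT1*. Over all sites of the series, 41.0% held such a run, so its presence does not set these sites apart.

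HNRNPK-bound reads on *MALAT1* made up a larger share of the cytoplasmic than of the nuclear library within each cell line, those on *NEAT1* and *KCNQ1OT1* a smaller one. The direction for *MALAT1* rested on 1 site, site 44, and was reversed in both cell lines without it. *MALAT1* held 6825, 5236, 3140 and 1783 reads in 23, 16, 23 and 30 clusters. This came to 1229 RPM (95% interval 1200.4 to 1259) in the parental cytoplasm, 842 RPM in the *KRT19* KO cytoplasm, 888 RPM in the parental nucleus and 548 RPM in the *KRT19* KO nucleus. Both parental libraries lay above the *KRT19* KO library of the same fraction.

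*NEAT1* held 1257, 1267, 2791 and 3551 reads in 34, 32, 38 and 52 clusters, or 226.4, 204, 789 and 1092 RPM. Both nuclear libraries lay well above both cytoplasmic ones. *KCNQ1OT1* was the RNA with the fewest reads, 125, 357, 161 and 542 in 12, 26, 14 and 35 clusters, or 22.5, 57.4, 45.5 and 167 RPM. Its highest share was in the *KRT19* KO nucleus and its lowest in the parental cytoplasm. Per kb of RNA, the levels were 118, 80.7, 85.1 and 52.5 RPM per kb on *MALAT1* and 9.96, 8.96, 34.7 and 48.0 on *NEAT1*. They were 0.246, 0.627, 0.496 and 1.82 RPM per kb on *KCNQ1OT1*. By this measure *MALAT1* was the highest and *KCNQ1OT1* the lowest of the 3 RNAs in each library.

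By reads, not scaled to length, *MALAT1* ranked 40 of 13388 genes with clusters in the parental cytoplasm and 109 of 12928 in the *KRT19* KO cytoplasm, and *NEAT1* 761 and 918. In the parental nucleus *MALAT1*, at rank 57 of 13517 genes, still stood ahead of *NEAT1*, at rank 75. The order was the other way in the *KRT19* KO nucleus alone, with *NEAT1* at rank 30 and *MALAT1* at rank 114 of 13581 genes. Because levels of the RNAs themselves were not analysed here, more RNA in a fraction and more HNRNPK on each RNA cannot be told apart. The purity of the fractions was not checked here either, so reads of a cytoplasmic library need not mark contacts made in the cytoplasm.

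**Figure D1:**
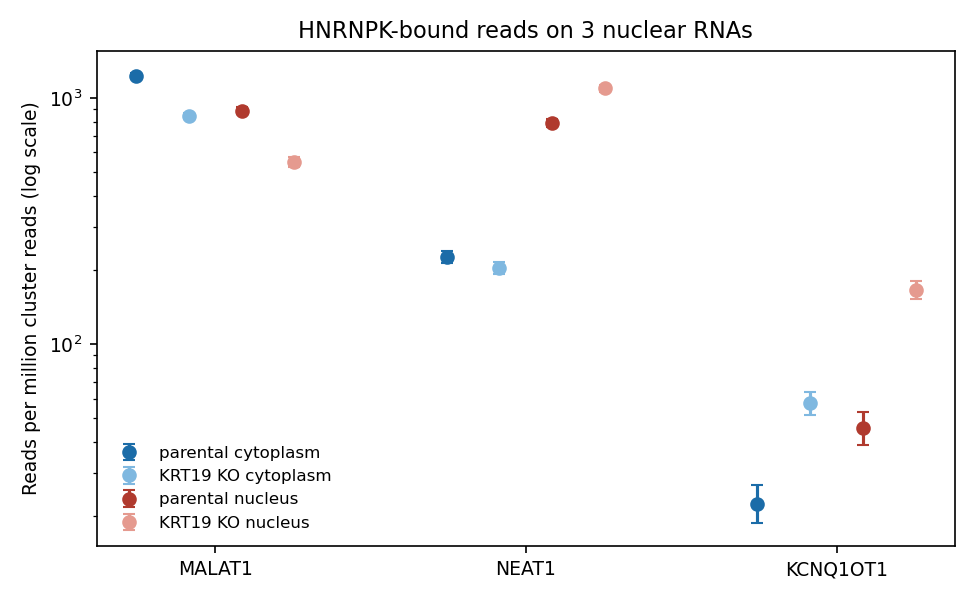
Reads in HNRNPK clusters on each RNA, in RPM (log scale), in the 4 libraries. Points are single libraries and bars are 95% Poisson intervals of the read count, which cover counting error only. *NEAT1* lies at 789 and 1092 RPM in the nuclear and at 226.4 and 204 RPM in the cytoplasmic libraries.

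The cytoplasmic share was compared with the nuclear share within each cell line. For *NEAT1* the cytoplasmic share was 3.48-fold lower than the nuclear share in parental cells (log2 ratio -1.80, 95% interval -1.90 to -1.70) and 5.36-fold lower in *KRT19* KO cells (-2.42, -2.51 to -2.33). With T-to-C reads alone the log2 ratios of *NEAT1* were -1.56 and -1.62, nearly the same in both cell lines. For *KCNQ1OT1* the cytoplasmic share was 2.02-fold lower in parental cells (-1.02, -1.35 to -0.68) and 2.90-fold lower in *KRT19* KO cells (-1.54, -1.73 to -1.34). The parental difference of *KCNQ1OT1* fell under the 2-fold limit with unique reads, at -0.73 with an interval of -1.48 to 0.02 that includes 0, and without mitochondrial clusters and the largest cluster in the denominator, at -0.93. *MALAT1* pointed the other way, with log2 ratios of 0.47 (0.41 to 0.53) and 0.62 (0.54 to 0.70), under the 2-fold limit. Among all genes with at least 200 reads in the libraries compared, 27.9% of 5981 genes were at least 2-fold lower in the cytoplasm in parental cells and 34.8% of 5956 in *KRT19* KO cells. The median gene stood at -0.44 and -0.36. A fall of this size was thus common, and 8.44% and 5.44% of the genes had a lower log2 ratio than *NEAT1* in parental and *KRT19* KO cells.

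The direction for *MALAT1* came from a single site. With site 44 left out, an alternative added once the values were known, *MALAT1* held 359 and 268 RPM in the parental and *KRT19* KO cytoplasm, below the 888 and 548 RPM of the nuclei, and its log2 ratios turned to -1.31 and -1.03. Site 44 was listed in neither nucleus, so leaving it out could lower the cytoplasmic values alone. The planned setting, without the strongest cluster of each library, gave smaller log2 ratios of -0.65 and -0.54. *NEAT1* stayed lower in the cytoplasm without its own strongest site, site 39, at -0.997 in parental cells, just under the 2-fold limit, and at -1.76 in *KRT19* KO cells. *KCNQ1OT1* stood at -1.27 and -1.66 without its strongest site.

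**Figure D2:**
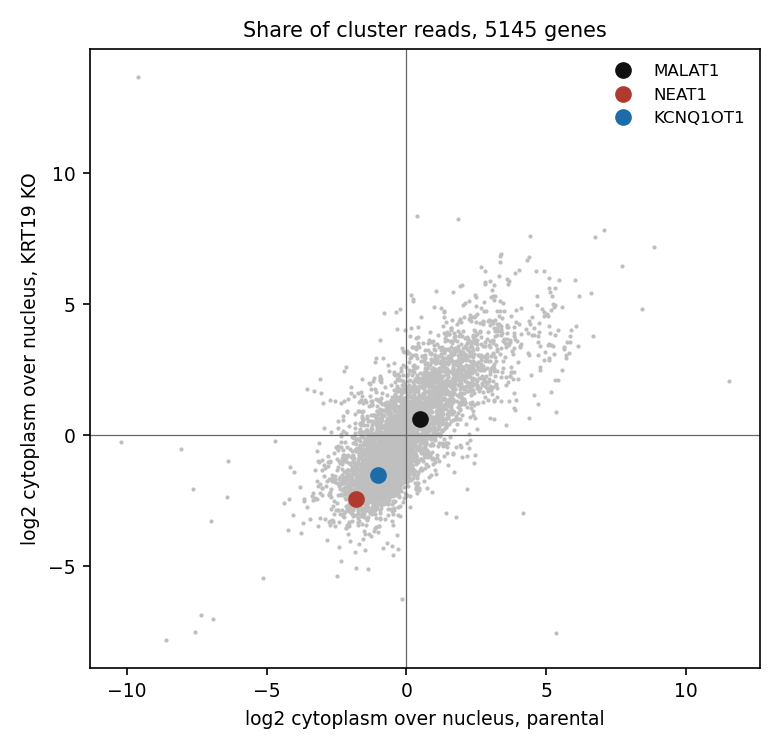
The log2 ratio of the cytoplasmic to the nuclear share of cluster reads in parental (x axis) and *KRT19* KO cells (y axis) for 5145 genes with at least 200 reads in both comparisons (grey) and for the 3 RNAs (colours). A gene without a cluster in a library was set at 5 reads there, which makes the far outlying points. *NEAT1* lies near the lower left edge of the cloud at -1.80 and -2.42, *MALAT1* at 0.47 and 0.62.

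The *KRT19* KO libraries were then compared with the parental libraries of the same fraction. *KCNQ1OT1* had the larger share in *KRT19* KO cells in either fraction, 2.55-fold in the cytoplasm (log2 ratio 1.35, 1.06 to 1.64) and 3.66-fold in the nucleus (1.87, 1.62 to 2.13). With unique reads its nuclear value was 2.50 (1.87 to 3.14). At least 2-fold higher were 18.7% of 6088 genes in the cytoplasm and 8.56% of 5339 genes in the nucleus. In the cytoplasm 87.8% and in the nucleus 97.9% of the genes had a lower log2 ratio than *KCNQ1OT1*. *MALAT1* had the smaller share in *KRT19* KO cells in both fractions, with log2 ratios of -0.55 in the cytoplasm and -0.70 in the nucleus. *NEAT1* was slightly lower in the cytoplasm (-0.15, -0.26 to -0.04) and higher in the nucleus (0.47, 0.40 to 0.54). With T-to-C reads alone the cytoplasmic value of *NEAT1* changed its sign, to 0.12 (-0.02 to 0.26), and with unique reads it was -0.10 (-0.28 to 0.08). The median gene stood at -0.04 in the cytoplasm and -0.10 in the nucleus. Neither *MALAT1* nor *NEAT1* reached a 2-fold difference between the cell lines. The cytoplasmic libraries of the cell lines also enter the comparison between fractions, so the ratios of both kinds are not independent.

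On *MALAT1*, sites were found between 1.501 and 8.569 kb from the 5′ end of the 10.4 kb transcript. None lay in the first or the last of 10 equal parts. Of the 66 annotated *MALAT1* transcripts, 11 share an end at 8.83 kb, downstream of the last site. The parts with the most reads differed between the libraries. The 7th part held 74.4% of the cytoplasmic *MALAT1* reads of parental and 69.9% of those of *KRT19* KO cells, but 10.7% and 8.30% of the nuclear ones. The 6th part held 18.0%, 24.3%, 61.2% and 14.6% of the reads in the 4 libraries. In the *KRT19* KO nucleus the 4th part led with 34.5%, followed by the 8th with 20.8%.

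Site 44 (chr11:65272354-65272422, 7245 nt from the 5′ end) was the strongest *MALAT1* site, with 4833 reads in the cytoplasm of parental cells, 3572 in that of *KRT19* KO cells and no cluster listed in either nucleus. It held 70.8% and 68.2% of the *MALAT1* reads of those libraries. A strong cytoplasmic cluster without a counterpart in a given nucleus was not rare in these files. Of the 309 parental cytoplasmic clusters with at least 1000 reads, 68.9% overlapped a cluster of the parental nucleus and 60.8% one of the *KRT19* KO nucleus. The share missing from both nuclei, as site 44 was, was not counted. Site 43 (chr11:65272240-65272300), just upstream of site 44, had clusters of 102, 101 and 28 reads in the parental cytoplasm, the parental nucleus and the *KRT19* KO nucleus. Both nuclei thus had a listed cluster next to site 44.

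Site 31 (chr11:65270418-65270460) held 808 reads in the parental cytoplasm, 1088 in the *KRT19* KO cytoplasm and 1144 in the parental nucleus, and was not listed in the *KRT19* KO nucleus. It was the strongest site of the parental nucleus, where it made up 36.4% of the *MALAT1* reads. Site 33 (chr11:65270733-65270789) was found in all 4 libraries with 275, 148, 460 and 59 reads. Site 10 (chr11:65268283-65268326), outside the rule for named sites and chosen after its values were seen, held 520 reads in the *KRT19* KO nucleus, 29.2% of the *MALAT1* reads there, and was listed in no other library. Of the 1410 *KRT19* KO nuclear clusters of the series with at least 100 reads, 67.7%, 72.5% and 68.9% overlapped a cluster of the parental cytoplasm, the *KRT19* KO cytoplasm and the parental nucleus. The share missing from all of these libraries, as site 10 was, was not counted. Each *MALAT1* library other than those of the cytoplasm thus had a different strongest site.

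**Figure D3:**
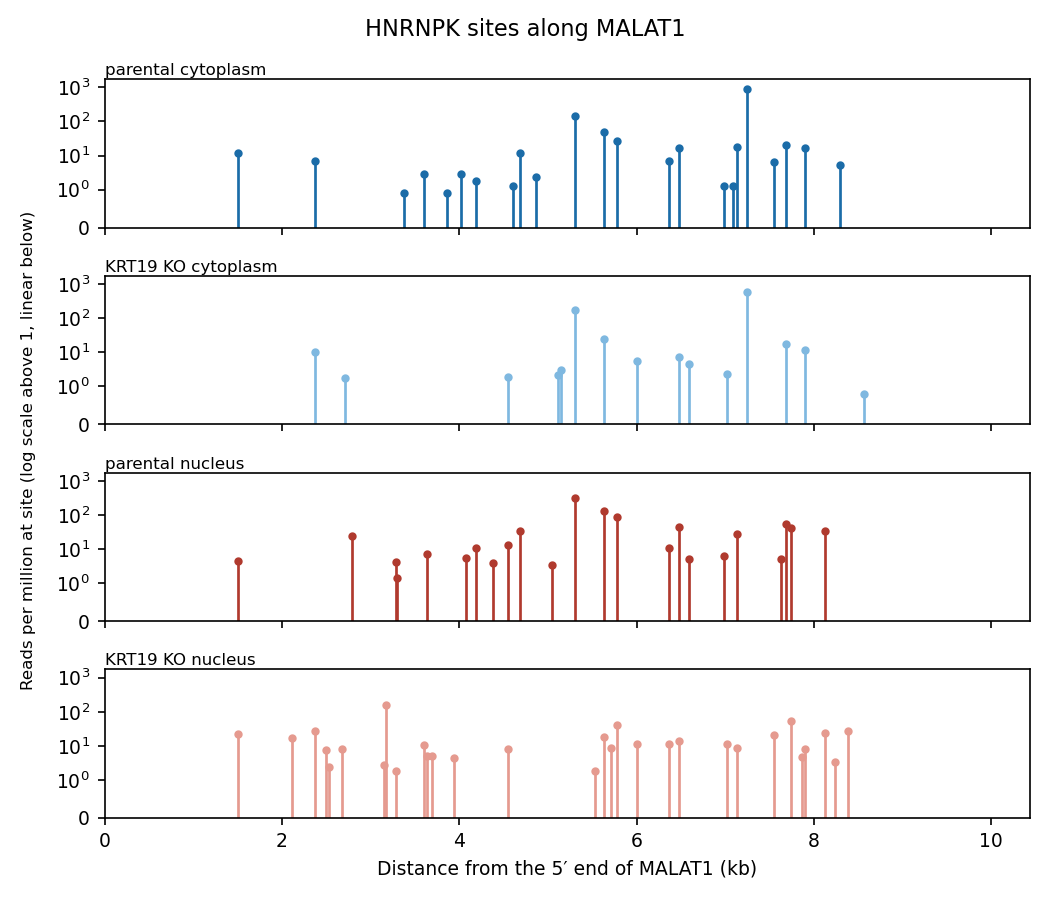
HNRNPK sites along *MALAT1* in the 4 libraries. Each stem stands at the site's position of highest signal, in kb from the 5′ end, and its height is the RPM of that library (linear up to 1 and logarithmic above). The tallest stem of both cytoplasmic panels, at 7245 nt, is missing from both nuclear panels.

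*NEAT1* had sites along its whole length, in all 10 equal parts, from 0.245 to 22.7 kb of the 22.7 kb RNA. The short isoform ends between chr11:65193856 and chr11:65193984 in its 6 annotated transcripts, up to 3716 nt from the 5′ end. With the last of these ends as the border, the 3716 nt up to it held 20 sites and the 19027 nt of the long isoform alone 84 sites, or 5.38 and 4.41 sites per kb. By reads the long part led, with 96.7%, 81.6%, 88.2% and 92.4% of the *NEAT1* reads in the 4 libraries. Per kb, the shared and the long part held 2.04 and 11.5 RPM in the parental cytoplasm and 10.1 and 8.74 in the *KRT19* KO cytoplasm. The nuclei held 24.95 and 36.6 RPM per kb in parental cells and 22.3 and 53.0 in *KRT19* KO cells. With this border the shared part exceeded the long part per kb in the *KRT19* KO cytoplasm. With the first annotated end as the border, an alternative added once the values were known, sites 19 and 20 joined the long part and that order turned, to 5.29 RPM per kb in the shared and 9.65 in the long part. The long part then held more per kb in each of the 4 libraries and 96.7%, 90.7%, 97.2% and 98.9% of the reads.

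Close to the end of the short isoform, site 19 (chr11:65193933-65193969) held 115 reads in the *KRT19* KO cytoplasm, 250 in the parental nucleus and 220 in the *KRT19* KO nucleus, and was not listed in the parental cytoplasm. It ended 15 nt before the last annotated end of the short isoform, and the sequence above closes in a run of C. Site 20 (chr11:65193978-65194001) overlapped that end and had 9 reads from 1 unique sequence, in the *KRT19* KO nucleus alone. Its sequence held no run of C:
NEAT1 site 20: aagtttgagttctaaactcattag
Site 19 was the third strongest of the 104 *NEAT1* sites and made up 8.96% of the nuclear *NEAT1* reads of parental cells and 6.20% of those of *KRT19* KO cells.

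The strongest *NEAT1* site was site 39 (chr11:65198491-65198553), 8227 nt from the 5′ end in the part of the long isoform alone. It held 1192 reads in the nucleus of parental cells and 1298 in that of *KRT19* KO cells, or 42.7% and 36.6% of the *NEAT1* reads there, and was listed in neither cytoplasm. Site 40 (chr11:65198716-65198756) lay downstream of it with 181 reads in the parental cytoplasm, 351 in the parental nucleus and 481 in the *KRT19* KO nucleus. A strong nuclear cluster without a counterpart in a given cytoplasm was common too, while the share missing from both cytoplasmic libraries was not counted. Of the 19 parental nuclear clusters with at least 1000 reads, 57.9% overlapped a cluster of the parental cytoplasm and 63.2% one of the *KRT19* KO cytoplasm, and of the 24 such clusters of the *KRT19* KO nucleus 45.8% and 50.0% did. The 4th of 10 equal parts, from 6823 to 9097 nt, which holds both sites, had 58.3% and 52.8% of the nuclear and 17.9% and 4.74% of the cytoplasmic *NEAT1* reads of parental and *KRT19* KO cells.

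Sites 49 (chr11:65200010-65200042) and 50 (chr11:65200106-65200137) were the *NEAT1* sites found in all 4 libraries. They held 154, 124, 181 and 105 reads and 54, 8, 46 and 89 reads. The sequences of sites 49 and 58, and of sites 50 and 59, differed by an edit distance of 2 over 32 nt, so reads could have been split between these copies and their separate values are uncertain.

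**Figure D4:**
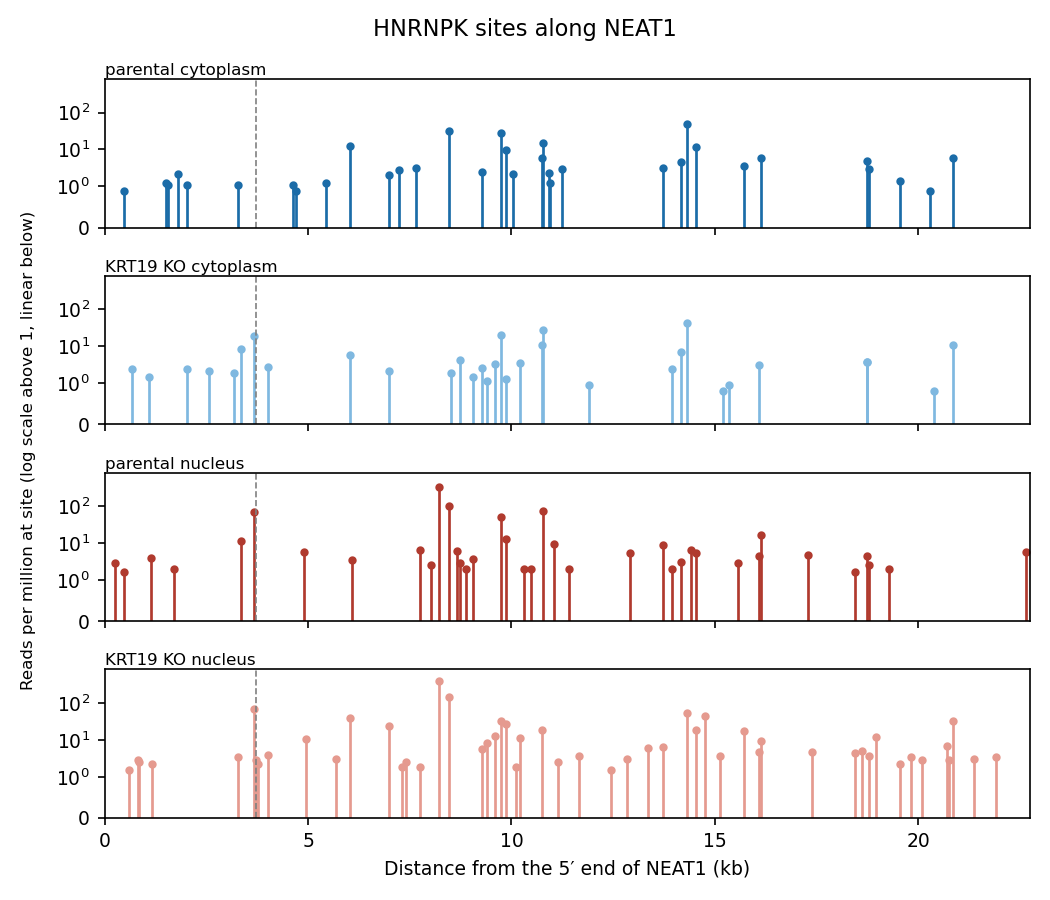
HNRNPK sites along *NEAT1* in the 4 libraries, drawn as for *MALAT1*, with the last annotated end of the short isoform as a dashed line. Stems stand on both sides of the line in each library, and the tallest nuclear stem, at 8227 nt, is missing from both cytoplasmic panels.

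On *KCNQ1OT1* the sites lay in the 5′ part of the RNA. Of 70 sites, 63 were in the first 5 of 10 equal parts, with 11, 15, 15, 15 and 7 sites. There were 4 sites in the 6th part, none in the 7th and 8th, 2 in the 9th and 1 in the last. The median site stood 23.0 kb from the 5′ end of the 91.7 kb transcript. No cluster on this RNA reached 100 reads in a library, against 11 *MALAT1* and 9 *NEAT1* sites that did. The reads were spread over many weak sites, and the strongest cluster held between 9.96% and 18.0% of the RNA's reads.

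Site 16 (chr11:2710603-2710657) was the strongest by summed share, with 20 reads in the parental cytoplasm, 51 in the *KRT19* KO cytoplasm and 35 in the *KRT19* KO nucleus. Site 61 (chr11:2679578-2679609) held 43 reads in the *KRT19* KO cytoplasm and 49 in the *KRT19* KO nucleus. Site 5 (chr11:2716874-2716901) held 8, 60 and 33 reads in the libraries in which site 16 was listed. None of the 3 sites was listed in the parental nucleus, where the RNA had 14 clusters. On this RNA 45 of 70 sites (64.3%, 95% interval 52.6 to 74.5%) were found in *KRT19* KO cells alone, 14 in parental cells alone and 11 in both. Sites found in *KRT19* KO cells alone made up 34.5% on *MALAT1*, 40.4% on *NEAT1* and 39.4% over all sites of the series. At 5 to 60 reads per cluster, a site missing from a library may still have held reads there, and these differences in listing were not tested.

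**Figure D5:**
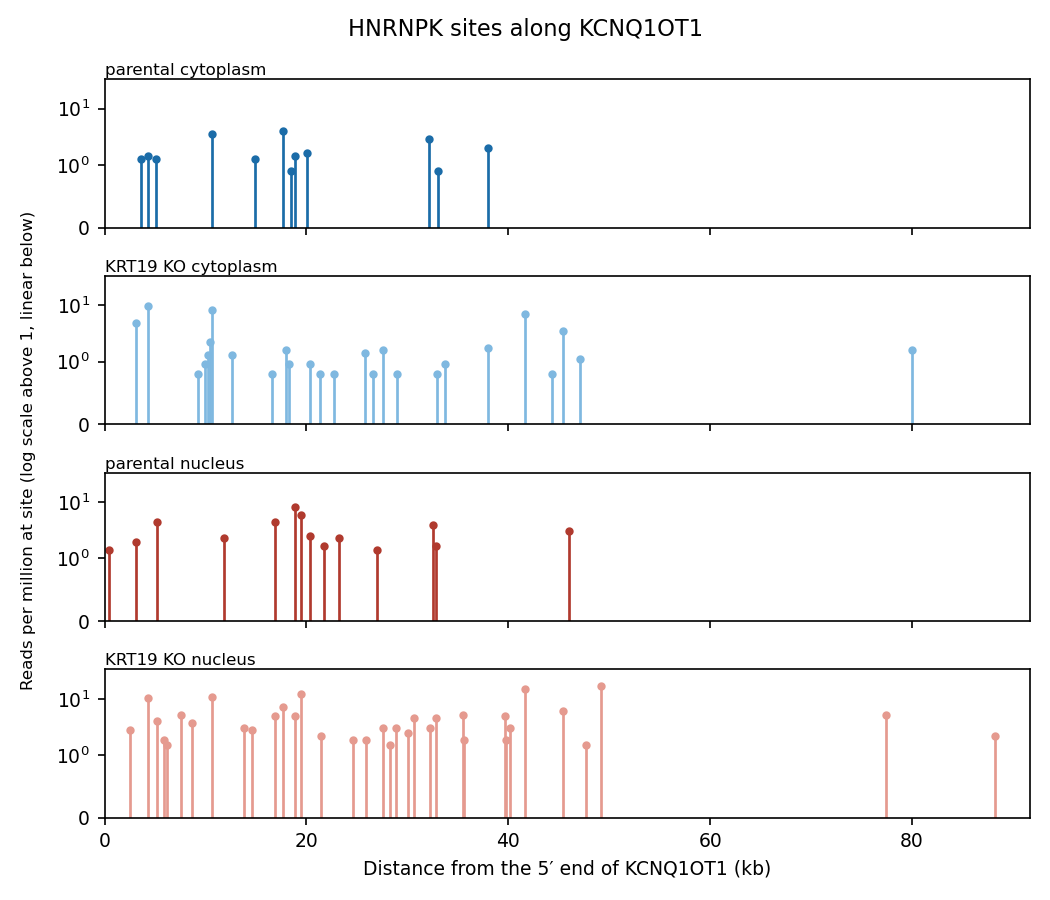
HNRNPK sites along *KCNQ1OT1* in the 4 libraries, drawn as for *MALAT1*. Of the 70 sites, 63 lie in the first 5 of 10 equal parts, and the *KRT19* KO nucleus, with 35 clusters, has the most.

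Few sites were shared by all 4 libraries, 2 of 55 on *MALAT1* (3.64%, 1.00 to 12.3%), 2 of 104 on *NEAT1* (1.92%, 0.529 to 6.74%) and 0 of 70 on *KCNQ1OT1* (up to 5.202%). Over all sites of the series the share was 1.68%. Sites listed in 1 library made up 58.2%, 68.3% and 80.0% of the sites of *MALAT1*, *NEAT1* and *KCNQ1OT1*, against 77.4% in the series. Sites listed in both fractions numbered 18 on *MALAT1* (32.7%), 29 on *NEAT1* (27.9%) and 9 on *KCNQ1OT1* (12.9%). Those listed in the nucleus alone numbered 24, 50 and 35, and those in the cytoplasm alone 13, 25 and 26. As shares, sites of the nucleus alone made up 43.6%, 48.1% and 50.0%, and those of the cytoplasm alone 23.6%, 24.0% and 37.1%. Over all sites of the series, 16.4% were listed in both fractions, 44.7% in the nucleus alone and 39.0% in the cytoplasm alone. The nucleus-only share of the series lay within the interval of each RNA (31.4 to 56.7%, 38.7 to 57.6% and 38.6 to 61.4%). Its share in both fractions lay below the intervals of *MALAT1* (21.8 to 45.9%) and *NEAT1* (20.2 to 37.2%) and within that of *KCNQ1OT1* (6.91 to 22.7%). Its cytoplasm-only share lay above the intervals of *MALAT1* (14.4 to 36.3%) and *NEAT1* (16.8 to 33.1%) and within that of *KCNQ1OT1* (26.8 to 48.9%). Sites with more reads are more often listed in several libraries, and the read counts of the sites were not matched here.

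Reads per 500 nt bin gave another view of the profiles, as a description across bins that share a library and are not replicates. On *MALAT1* (21 bins) the cytoplasmic libraries of the cell lines had a Pearson correlation of 0.99, and the parental cytoplasm and nucleus one of 0.14, with Spearman values of 0.73 and 0.81. On *NEAT1* (46 bins) the nuclei had a Pearson correlation of 0.98 and a Spearman correlation of 0.41. Across the fractions, the *NEAT1* Pearson values ran from 0.08 to 0.52 and the Spearman values from 0.34 to 0.61, the highest being that of the parental cytoplasm and the *KRT19* KO nucleus. The nuclei of the cell lines had a Pearson correlation of 0.11 and a Spearman correlation of 0.49 on *MALAT1*, and the cytoplasmic libraries 0.78 and 0.38 on *NEAT1*. On *KCNQ1OT1* (184 bins, most of them empty) the same values were 0.42 and 0.31 for the cytoplasmic libraries and 0.28 and 0.17 for the nuclei, and the highest Pearson value was 0.52, between the cytoplasm and the nucleus of *KRT19* KO cells.

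A C-rich motif, which was taken from an earlier analysis of these data and spans 5 nt ending in CCC, with T or A in the first place and T, C or A in the second, was sought on the RNA strand of each site. It occurred in 7 of 55 *MALAT1* sites (12.7%, 6.30 to 24.0%), 28 of 104 *NEAT1* sites (26.9%, 19.3 to 36.2%) and 22 of 70 *KCNQ1OT1* sites (31.4%, 21.8 to 43.0%). Among all sites of the series the share was 29.3%. Windows of the same lengths along the same RNAs held the motif in 10.6%, 11.8% and 12.1% of cases. The share was thus 2.28 times that of windows on *NEAT1* and 2.59 times on *KCNQ1OT1*, while the interval of *MALAT1* included its windows. Because the motif was taken from these same data, an excess over windows is not an independent check of it. In clusters of the parental cytoplasm alone the *KCNQ1OT1* share was lower, at 2 of 12 (16.7%). The plain run CCC occurred in 11 of 55, 36 of 104 and 35 of 70 sites, beside 21.2%, 24.1% and 26.1% of windows. Over all sites of the series, 41.0% held CCC. This share lay above the interval of *MALAT1* (11.6 to 32.4%). It lay within those of *NEAT1* (26.2 to 44.2%) and *KCNQ1OT1* (38.6 to 61.4%). Among sites listed in the cytoplasm alone, 0 of 13 held the motif on *MALAT1* (up to 22.8%, which includes the 12.7% of all its sites), 7 of 25 on *NEAT1* and 8 of 26 on *KCNQ1OT1*, against 23.9% over the series. Sites found in both cell lines held it in 6 of 19, 12 of 29 and 4 of 11 cases, against 41.4% over the series.

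Bases of the sites differed in the same order. C made up 18.6% of the bases of *MALAT1* sites and 17.9% of the whole RNA, 25.8% against 20.4% on *NEAT1*, and 30.3% against 21.4% on *KCNQ1OT1*. G was less frequent in the sites of each than along the RNA, at 18.5%, 14.4% and 14.2% against 24.2%, 23.6% and 22.3% of the RNA. *MALAT1* sites held the most G of the 3 RNAs, and the sites of the series held 8.64%. As RNase T1 cuts after G, the enzyme and the protein both bear on this composition and cannot be told apart. The words ACCTCCC and GCCTCCC mark the C-rich nuclear-retention element. They occurred in 0 of 55 *MALAT1* sites, 2 of 104 *NEAT1* sites (1.92%, 0.529 to 6.74%) and 2 of 70 *KCNQ1OT1* sites (2.86%, 0.787 to 9.83%). Over all sites of the series the share was 1.02%, and over windows of the same lengths on the RNAs 0.286%, 0.505% and 0.514%. Of 22 copies of these words on *KCNQ1OT1*, 2 lay in listed sites, which hold 1920 of its 91667 nt. On *NEAT1* 2 of 5 copies did, in sites that hold 3010 of 22743 nt. With 2 such sites on each RNA, these shares are uncertain.

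The share of reads with a T-to-C change was low on *MALAT1*, at 48.0% (46.8 to 49.2%), 47.9%, 49.6% and 47.6% in the 4 libraries, against 66.4%, 59.6%, 72.9% and 76.7% for all clusters. It was 61.7%, 67.1%, 57.5% and 49.7% on *NEAT1* and 72.8%, 72.0%, 82.0% and 83.8% on *KCNQ1OT1*. By pooled reads, *MALAT1* lay below the value of all clusters in each library and *KCNQ1OT1* above it. *NEAT1* lay below it in the nuclei and in the parental cytoplasm and above it in the *KRT19* KO cytoplasm. The strongest sites had low shares, 45.2% and 46.3% at *MALAT1* site 44 and 45.4% and 41.7% at *NEAT1* site 39. The median cluster was higher than the pooled reads on each RNA, for example 67.6% on *MALAT1*, 79.1% on *NEAT1* and 93.8% on *KCNQ1OT1* in the parental cytoplasm. The median of all clusters was 100%, 80%, 100% and 100% in the 4 libraries, so by this measure all 3 RNAs lay below it in the parental cytoplasm. A cluster is listed only where it holds T-to-C reads, so these shares are not independent of the calling.

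Other RNAs were read from lists of genes. The first list held 14 further long noncoding RNAs studied in the nucleus, some of which, such as *TUG1* and *OIP5-AS1*, are also found in the cytoplasm. Of these 14, 7 had a cluster and 5 had enough reads in each comparison of the fractions. Of these 5, 2 were at least 2-fold lower in the cytoplasm in either cell line, and at least 2-fold higher were 0 of them in parental and 2 in *KRT19* KO cells. Their median log2 ratios were -0.76 and -0.60, beside -0.44 and -0.36 for all genes. Of all genes, 27.9% were at least 2-fold lower and 19.4% at least 2-fold higher in the cytoplasm in parental cells, and 34.8% and 28.1% in *KRT19* KO cells. *PVT1*, a long noncoding RNA beside *MYC*, held 607, 382, 1617 and 1470.4 RPM, with cytoplasm to nucleus log2 ratios of -1.41 in parental and -1.94 in *KRT19* KO cells. *FTX*, a noncoding RNA of the X-inactivation centre, stood at -0.76 and -0.60. *TUG1* stood at 0.56 and 2.16 and *OIP5-AS1* at 0.39 and 1.08.

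Of 13 mainly cytoplasmic or processed long noncoding RNAs, 5 in parental and 6 in *KRT19* KO cells had enough reads. In parental cells 4 were lower and 1 was higher in the cytoplasm, with a median log2 ratio of -1.14, and in *KRT19* KO cells 3 were lower and 3 higher, with a median of 0.07. All genes stood at medians of -0.44 and -0.36, with 27.9% lower and 19.4% higher in parental and 34.8% lower and 28.1% higher in *KRT19* KO cells. *GAS5*, a host gene of small nucleolar RNAs, stood at -3.76 and -3.72, and *SNHG16*, another such host gene, at 1.59 and 2.89. *ZFAS1* stood at -1.14 and -1.72 and *SNHG1* at -2.29 and -1.51.

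Each of the 15 listed genes for proteins of the paraspeckle and of 3′-end processing had at least 1 cluster in at least 1 library. Clusters were listed on 18322 genes of the series, so having a cluster does not set these genes apart. In each cell line 14 had enough reads, but not the same 14, as *TARDBP* had too few in parental and *TAF15* in *KRT19* KO cells. In either line 5 were lower, not all of them the same genes. In parental cells 2 were higher and in *KRT19* KO cells 3, with median log2 ratios of -0.20 and -0.15. The parental value of *TAF15*, 1 of these 2, rests on the 5 reads set for a gene without a cluster. With 27.9% and 34.8% of all genes lower and 19.4% and 28.1% higher, and medians of -0.44 and -0.36, these counts were near the background. *NUDT21*, a subunit of the factor that acts at the short *NEAT1* end, held 500.2, 426, 26.0 and 25.8 RPM, a cytoplasm to nucleus log2 ratio of 4.27 in parental and 4.05 in *KRT19* KO cells. *CPSF7*, of the same factor, stood at -0.36 and 0.68. *EWSR1*, a FET-family RNA-binding protein, stood at -1.49 and -2.25, and *SFPQ*, a core paraspeckle protein, at 0.20 and -0.89.

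Of 5 nuclear speckle genes, 2 were at least 2-fold higher and 1 at least 2-fold lower in the cytoplasm in either line, with median log2 ratios of -0.19 and 0.48. Among all genes 19.4% and 28.1% were higher and 27.9% and 34.8% lower in the cytoplasm, with medians of -0.44 and -0.36. The splicing factor RNAs *SRSF2*, at 2.63 and 3.95, and *SRSF1*, at 3.40 and 4.18, were the higher ones, and *SRRM2*, a speckle scaffold, at -2.29 and -1.12, the lower one. *SON* stood at -0.19 and 0.48. At the *KCNQ1OT1* locus, none of 9 genes of the imprinted domain reached 200 reads over the libraries, and 6 had a cluster. *CD81*, outside the rule for named genes, came close to the limit with 198 reads. The shares of all genes that reach 200 reads or have a cluster were not counted, so these counts do not set the domain apart. *KCNQ1* held 12 reads in the parental cytoplasm and 11 in the parental nucleus, and *CDKN1C* 14 reads in the *KRT19* KO nucleus alone. *KCNQ1OT1*, at 125 to 542 reads, thus held more reads, not scaled to length, than its sense gene in each library.

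The genes whose 4 levels were most like those of each RNA were found by the Euclidean distance of log2 RPM over the 4 libraries, among 5289 genes. For *MALAT1* these were *LPP* (distance 0.45), *DCBLD2* (0.51) and *MBNL1* (0.57). For *NEAT1* they were *ANKRD11* (0.48), *CDC42BPA* (0.75) and *FAF1* (0.81), and for *KCNQ1OT1* *FNTA* (0.59), *RP11-445O3.2* (0.63) and *NFYC* (0.68). *ANKRD11* held 185, 240.0, 774 and 885 RPM, as an example of a gene with the pattern of *NEAT1*.

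Marker genes of the cell line were looked up, although a cluster shows HNRNPK binding and not expression. The 4 markers of mesenchymal-like triple-negative cells, *VIM*, *CD44*, *EGFR* and *AXL*, had clusters in each library, with *EGFR* at 6863, 5006, 5732 and 5090 reads. Clusters were listed on 13388, 12928, 13517 and 13581 genes in the 4 libraries, and the share of genes listed in all of them was not counted. Of the luminal and epithelial markers, *PGR* had no cluster listed, *CDH1* 6 reads and *GATA3* 23 reads over the 4 libraries. *ESR1* held 76, 26, 77 and 60 reads, low but listed in each library. A cluster in each library thus does not tell the expected markers from the others.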

How the data were processed

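HNRNPK PAR-CLIP clusters of 4 libraries were used, and the 17 RNA-seq samples were not analysed here. According to the methods, the authors used hg19 as the genome, collapsed identical reads and called clusters with PARalyzer in PARpipe. The authors deposited raw counts of reads, unique reads and T-to-C reads per cluster, not normalized. The deposited fraction of T-to-C reads, the mode score and the log10 conversion specificity were not used. All 335 member clusters equalled the GRCh37 sequence at their positions, and positions were set against GENCODE v44lift37.

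Groups came from the sample titles. With 1 library per condition, shares have 95% Wilson, counts 95% Poisson and ratios 95% Poisson-ratio intervals, and no test was run. For ratios over all genes, at least 200 reads in both libraries together were required, a gene with no cluster in a library was set at 5 reads, and genes at least 2-fold apart were counted. Likeness required at least 500 reads over the 4 libraries. Merging, ratios and intervals were tested on simulated data.

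Named were the 3 RNAs, the 3 sites of each with the most reads as summed shares, the 2 sites nearest the short *NEAT1* end, *KCNQ1* and *CDKN1C*, up to 4 members per gene list with at least 200 reads, and the 3 nearest genes. Members and lists were chosen with earlier results of these data known. Alternatives were clusters of at least 10 reads, unique or T-to-C reads, other denominators, spans, overlaps and motifs, 2 conversion locations, 20 parts, and leaving out the strongest cluster. Python 3.11.15, numpy 2.4.6, pandas 2.3.3, scipy 1.17.1, edlib 1.3.9.post1 and matplotlib 3.10.9 were used.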

Additional observations from a re-analysis of the deposited data

Results flagged for a closer look

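The *KRT19* KO to parental log2 ratio of *NEAT1* had opposite signs in the fractions, at -0.15 in the cytoplasm and 0.47 in the nucleus. The median gene stood at -0.04 and -0.10, and 45.9% of genes had a lower cytoplasmic ratio than *NEAT1*, so its cytoplasmic value was near the background. With T-to-C reads alone the cytoplasmic value was 0.12, and with unique reads -0.10 (-0.28 to 0.08). Cytoplasm to nucleus log2 ratios had opposite signs in parental and *KRT19* KO cells for *CPSF7* (-0.36 and 0.68), *SFPQ* (0.20 and -0.89) and *SON* (-0.19 and 0.48). They were not the only listed genes with opposite signs. Others, chosen after their values were seen, were *SNHG5* (-1.09 and 1.66), *HNRNPK* (-1.33 and 0.12) and *VIM* (-0.34 and 1.10). Each of these differences rests on 1 library per condition and was not tested. On the strand opposite to *KCNQ1OT1*, within its span, a cluster of 6 reads in the parental cytoplasm and a cluster of 11 reads in the parental nucleus were assigned to *KCNQ1*. No cluster was listed there in *KRT19* KO cells, nor on the strand opposite to *MALAT1* or *NEAT1* in the 4 libraries.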

How the results depend on the processing

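No paired analysis was possible because each condition had 1 library and no test was run. Of 129 values under the settings planned at the start, 74 stayed within the 95% counting interval of the reported value, 52 left it in the same direction or as a share, and 3 changed their sign. Of 16 values under settings added later, 7 stayed within it, 7 left it and 2 changed their sign. Depth limits *KCNQ1OT1* most, whose clusters held few reads.

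Without the strongest cluster of each library, the cytoplasm to nucleus log2 ratio of *MALAT1* was reversed, at -0.65 (parental) and -0.54 (*KRT19* KO), and that of *NEAT1* was -1.34 and -2.11. The *KRT19* KO to parental log2 ratio was then -0.42 in the cytoplasm and -0.54 in the nucleus for *MALAT1* and 0.62 in the nucleus for *NEAT1*. Without the strongest site in all libraries, chosen after the values were seen, *MALAT1* turned to -1.31 and -1.03 and *NEAT1* stood at -0.997, under the 2-fold limit, and -1.76, and the *KRT19* KO to parental values that moved were -0.42 for *MALAT1* in the cytoplasm and 0.62 for *NEAT1* in the nucleus. With clusters of at least 10 reads, the cytoplasm to nucleus log2 ratios in parental and *KRT19* KO cells were 0.40 and 0.49 for *MALAT1*, -1.91 and -2.58 for *NEAT1* and -1.35 and -1.89 for *KCNQ1OT1*, and *KCNQ1OT1* stood at 1.71 and 2.24 between the cell lines in cytoplasm and nucleus. With T-to-C reads, these were 0.56 and 0.99 for *MALAT1* and -1.56 and -1.62 for *NEAT1* between the fractions. Between the cell lines they were -0.39 and -0.83 for *MALAT1* and 0.12 and 0.18 for *NEAT1*, in cytoplasm and nucleus, so the cytoplasmic value of *NEAT1* was reversed, with an interval of -0.02 to 0.26 that includes 0, and its opposite directions in the fractions were lost. With unique reads, the *KRT19* KO cytoplasm to nucleus log2 ratio was 0.17 for *MALAT1* and -1.83 for *KCNQ1OT1*, and between the cell lines it was -0.61 in the cytoplasm and -0.36 in the nucleus for *MALAT1*, and in the nucleus 0.66 for *NEAT1* and 2.50 for *KCNQ1OT1*. In the parental line the ratio of *KCNQ1OT1* was -0.73 (-1.48 to 0.02) with unique reads, under the 2-fold limit, and -0.93 with the denominator without mitochondrial clusters and the largest cluster, a setting that also moved *MALAT1* in parental cells to 0.55. The cause of these changes was not tested.

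With CCC, 50.0% of *KCNQ1OT1* sites held the motif, and in clusters of the parental cytoplasm alone 16.7% did. T-to-C shares as medians over clusters were 67.6%, 66.8%, 71.1% and 58.0% on *MALAT1*, 79.1%, 74.5%, 86.9% and 87.1% on *NEAT1* and 93.8%, 100%, 100% and 100% on *KCNQ1OT1*. Without the strongest cluster they were 54.9%, 51.3% and 56.1% on *MALAT1* in the first 3 libraries, 69.8%, 66.5% and 54.3% on *NEAT1* in the last 3, and 82.5%, 93.9% and 87.9% on *KCNQ1OT1* in the parental cytoplasm, parental nucleus and *KRT19* KO nucleus. With clusters of at least 10 reads, *KCNQ1OT1* stood at 64.4% in the *KRT19* KO cytoplasm and 73.8% in the parental nucleus. With the first annotated end of the short *NEAT1* isoform as the border, the part of the long isoform alone held 90.7%, 97.2% and 98.9% of the *NEAT1* reads in the last 3 libraries. The overlap of 10 nt, 2 conversion locations, 20 parts and clusters taken by span moved no value out of its interval.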

Other observations

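*TAF15*, a FET-family gene of the paraspeckle list chosen after its values were seen, had 32 clusters with 1852 reads in the parental cytoplasm and no cluster listed in the other 3 libraries. It is 1 of the 2 paraspeckle genes counted as at least 2-fold higher in the parental cytoplasm, with its parental nucleus set at 5 reads. The cause was not tested.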
